A study of Mus musculus with 8 samples.

Results

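The subunits that complexes II, III, IV and V of the mitochondrial respiratory chain have in common across tissues, together with cytochrome c, were followed in RNA that TRAP recovered from UCP1-expressing cells in 3 fat depots of cold-exposed mice. The genes were taken by symbol and not by any measured value: Sdha, Sdhb, Sdhc and Sdhd for complex II, Cyc1 and every symbol that starts with Uqcr for complex III, Cycs for cytochrome c, Cox5a, Cox5b, Cox6b1, Cox6c, Cox7b and Cox7c for complex IV, and every symbol that starts with Atp5 for complex V. This gave 37 of the 22552 genes in the files. The older symbol Ucrc, which the rule also names, is listed there as Uqcr10. Atp5s and Atp5sl share the Atp5 name but are not structural subunits of the enzyme, so complex V is described without them.

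Ribosome-bound RNA had been pulled down with an antibody against GFP from inguinal white adipose tissue (WAT; 3 libraries), perigonadal WAT (2 libraries) and interscapular brown adipose tissue (BAT; 3 libraries), and then sequenced. All mice were females of the strain labelled C57B/6 UCP1-TRAP, and the 3 depots share 1 history: breeding at 30 °C, weaning to room temperature at 3 weeks of age, a move to 4 °C at 4 weeks, and tissue collection at 6 weeks of age after 2 weeks in the cold. In TRAP (translating ribosome affinity purification) a tagged ribosomal protein is made only in cells that use a chosen promoter, here named after Ucp1, the uncoupling protein of brown and beige adipocytes. No library from warm mice and none of unbound RNA was analysed here, so each comparison is between depots of cold-exposed mice. The labels do not say whether a library came from 1 mouse or from pooled mice, and p-values therefore measure the spread between these libraries, which may be technical.

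The respiratory chain of the inner mitochondrial membrane passes electrons from NADH and succinate to oxygen and pumps protons on the way. Complex II (succinate dehydrogenase) feeds in electrons from succinate without pumping, complex III (the cytochrome bc1 complex) hands them to the mobile carrier cytochrome c, complex IV (cytochrome c oxidase) reduces oxygen, and complex V (ATP synthase) lets protons flow back to make ATP. Brown adipocytes are known for abundant respiratory chain and little ATP synthase, because UCP1 gives the protons another way back and the fuel energy leaves as heat. In brown fat, scarce ATP synthase has been tied to low expression of Atp5g1, 1 of the 3 genes that encode the same mature c subunit of its rotor ring.

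The promoters of 5 genes are shown because 2 sets of partners in 1 complex had ratios that lay apart between some depots in these libraries. They are Sdha and Sdhb, the flavoprotein and the iron-sulfur subunit of complex II, and Atp5g1, Atp5g2 and Atp5g3, the c-subunit genes. None of these ratios was called in an exact permutation test, which at these group sizes allows no p under 0.1. Atp5b over Atp5a1 lay apart too, and Atp5a1 had no entry in the promoter table. Each line gives the 250 bases before the annotated start, 5′ to 3′ on the gene's strand, from the RefSeq promoter table for build GRCm38.p6. Capitals mark a match to a binding motif of a regulator of respiratory genes, and lower case is the rest. The windows lie at chr13:74350241-74350490 (minus strand) for Sdha, chr4:140961021-140961270 (plus strand) for Sdhb, chr11:96075632-96075881 (minus strand) for Atp5g1, chr15:102671048-102671297 (minus strand) for Atp5g2 and chr2:73911327-73911576 (minus strand) for Atp5g3.
Sdha: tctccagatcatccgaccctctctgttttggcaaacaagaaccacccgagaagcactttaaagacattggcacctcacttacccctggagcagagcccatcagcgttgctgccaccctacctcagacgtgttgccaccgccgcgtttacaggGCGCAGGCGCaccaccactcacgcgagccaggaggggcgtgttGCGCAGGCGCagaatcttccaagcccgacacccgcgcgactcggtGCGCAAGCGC
Sdhb: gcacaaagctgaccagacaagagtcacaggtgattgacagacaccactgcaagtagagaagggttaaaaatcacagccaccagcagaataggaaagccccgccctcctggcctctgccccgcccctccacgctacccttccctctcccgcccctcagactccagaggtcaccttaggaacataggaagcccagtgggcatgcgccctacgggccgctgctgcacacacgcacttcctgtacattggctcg
Atp5g1: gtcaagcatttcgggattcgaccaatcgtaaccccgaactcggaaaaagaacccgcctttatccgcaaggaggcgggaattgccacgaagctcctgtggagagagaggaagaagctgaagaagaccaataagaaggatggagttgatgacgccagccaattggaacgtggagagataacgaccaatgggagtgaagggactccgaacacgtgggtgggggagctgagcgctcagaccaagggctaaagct
Atp5g2: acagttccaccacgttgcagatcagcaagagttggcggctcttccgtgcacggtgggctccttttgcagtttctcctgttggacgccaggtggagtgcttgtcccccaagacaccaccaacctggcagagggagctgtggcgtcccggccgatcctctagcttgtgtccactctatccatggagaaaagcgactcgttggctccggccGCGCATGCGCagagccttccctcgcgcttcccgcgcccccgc
Atp5g3: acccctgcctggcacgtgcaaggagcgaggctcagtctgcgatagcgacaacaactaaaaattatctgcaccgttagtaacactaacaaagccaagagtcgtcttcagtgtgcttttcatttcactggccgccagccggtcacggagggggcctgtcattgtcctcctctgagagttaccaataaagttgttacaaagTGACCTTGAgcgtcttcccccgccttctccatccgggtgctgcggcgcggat
Sdha held 3 matches to the motif of NRF1 (GCGCA, any base, then GCGC), which end 89, 46 and 1 bases before the start, and Sdhb held none of the 4 motifs searched. Atp5g2 held 1 NRF1 match, 42 to 33 bases before the start. Atp5g3 held instead 1 match to the motif of the estrogen-related receptors (ERR), on the reverse strand 52 to 44 bases before the start, and Atp5g1 held none.

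Both strands were searched, and of the 37 genes 30 had an entry in that table. The NRF1 motif was present in 6 of the 30 (20% against 4.23% of all 27025 genes with an entry): Sdha, Sdhd, Atp5c1, Atp5g2, Atp5h and Atp5k. The ETS motif CCGGAAG, which GABPA binds, was in 8 of the 30 (26.7% against 7.83%): Sdhd, Uqcrh, Uqcr11, Cox6b1, Atp5e, Atp5h, Atp5j and Atp5l. The ERR motif was in 1 (3.33% against 0.422%) and the YY1 motif in 2, Atp5j and Atp5sl (6.67% against 0.71%). These are letter matches in a fixed window, and no binding was measured.

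The files give FPKM, that is, fragments per length of transcript and per depth of library, so that levels of different genes can be set side by side. The FPKM total of a library ranged from 75924.9 in inguinal replicate 3 to 206549 in perigonadal replicate 1, the genes at 1 FPKM or more from 5859 to 9548, and the fragments estimated from the files from 238913 to 1072338, with the same libraries at both ends. The subunit genes held 9800 to 29780 of those fragments per library. Inguinal replicate 3 lay below the mean of the other inguinal libraries in all 37 genes as deposited (median ratio 0.576, total ratio 0.529), and above it in 32 of 37 after scaling (median ratio 1.24). Scaled values, given beside the deposited ones, were divided by the library's median ratio to the geometric mean over all libraries. Ucp1 was at 592 to 1417 FPKM in inguinal WAT, 1282 to 1593 in perigonadal WAT and 1313 to 1575 in BAT, and 10 thermogenic adipocyte markers summed to 1456 to 3256, 3255 to 3546 and 4077 to 5143 FPKM. Of these markers Cox7a1 and Cox8b are themselves subunits of cytochrome c oxidase, and the other 8 summed to 850.5 to 1940, 1872 to 2300 and 1891 to 2087 FPKM, with overlap between the depots.

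The depots also differed in genes of other cell types. The summed level of 10 smooth muscle markers was 44.1 to 146 FPKM in inguinal WAT, 9.41 to 16.9 in perigonadal WAT and 7.46 to 8.53 in BAT, where 4 of the 10 were at 0 in every library. The 12 mammary luminal markers summed to 112 to 147, 2.58 to 3.16 and 7.02 to 22.3 FPKM, with 10 of the 12 at 0 in every BAT library. The 7 basal epithelial markers summed to 11.2 to 28.9 FPKM in inguinal WAT and were at 0 in BAT. The 13 skeletal muscle markers stayed under 10 FPKM in sum in every library (2.13 to 9.29 in BAT). Perigonadal WAT was highest in 3 other lists, and within it replicate 1 was the higher library. The 7 endothelial markers summed to 7.19 and 13.5 FPKM there, beside 1.29 to 4.19 in inguinal WAT and 2.50 to 4.13 in BAT, the 5 mesothelial markers to 1.82 and 13.2, beside 0.239 to 0.681 and 0 to 0.155, and the 10 pan-adipocyte markers to 6514 and 10300, beside 3188 to 6249 and 3829 to 4497. The 7 macrophage markers (3.39 to 11.1 FPKM over all libraries) and the 5 red blood cell markers (0 to 1.26 in inguinal WAT, 4.01 to 13.9 elsewhere) were low. Their part in the differences below was not tested. Each library holds RNA pulled down from many cells of a depot. A different mix of cells behind that RNA and a different level per UCP1-expressing cell cannot be told apart.

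The subunit genes stood among the most abundant of these libraries. Over the 8 libraries, 32 of the 37 had a mean of at least 100 FPKM. Atp5b, the catalytic beta subunit of ATP synthase, was highest with a mean of 996 FPKM, and the succinate dehydrogenase genes Sdha and Sdhb ranked 112 and 127 of the 8958 genes tested. Atp5g2 had a mean of 94.2 FPKM and Atp5j, coupling factor 6 of the peripheral stalk, a mean of 26.3 FPKM. The remaining 3 were Atp5g1 at 8.25 FPKM and the name-only genes Atp5s and Atp5sl at 2.32 and 2.85 FPKM. The order of the genes was alike in all libraries, with Spearman correlations of 0.89 to 0.989 over the 37 genes in the 28 pairs of libraries, which share gene models and length scaling.

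**Figure D1:**
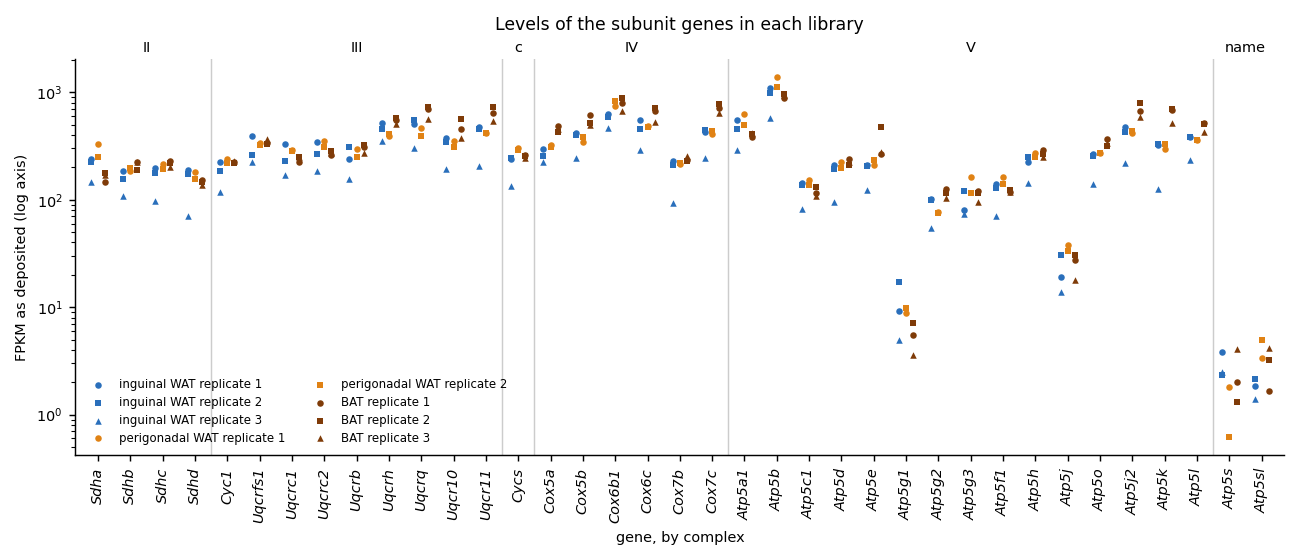
FPKM as deposited of each of the 37 genes (log axis) in each of the 8 libraries, grouped by complex, with blue for inguinal WAT, orange for perigonadal WAT, brown for BAT and a symbol for each replicate. Most genes lie between 100 and 1000 FPKM, Atp5g1 and Atp5j lie far below their complex, and inguinal replicate 3 (blue triangles) is the lowest inguinal library in nearly every gene.

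As a share of each library's FPKM, which is itself a scaling to the library's total, the 37 genes held most in BAT. Inguinal WAT (replicates 1, 2 and 3 in order) gave 7.70, 7.39 and 8.27%, perigonadal WAT (replicates 1 and 2) 5.60 and 7.35%, and BAT (replicates 1, 2 and 3) 10.1, 10.6 and 9.69%. The same order of libraries is kept for every gene below. No WAT library reached the lowest BAT library, and the perigonadal libraries lay apart from each other and both below the inguinal ones. The group means were 7.79% ± 0.448 (SD, n = 3), 6.47% ± 1.24 (SD, n = 2) and 10.1% ± 0.426 (SD, n = 3). Since most of these transcripts are short, a tilt of a library toward short or long transcripts moves this share too (values follow with the lengths).

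By complex, the summed share was highest in BAT throughout, with the clearest gaps for III, IV and V. Complex IV held 1.83% ± 0.202 of the FPKM in inguinal WAT, 1.51% ± 0.408 in perigonadal WAT and 2.65% ± 0.133 in BAT, with every WAT library below every BAT library. Complex V held 2.90% ± 0.0585, 2.55% ± 0.400 and 3.78% ± 0.174, and complex III 2.34% ± 0.172, 1.74% ± 0.322 and 2.91% ± 0.162, again without overlap of WAT with BAT. Within complex V, the 5 genes of the catalytic F1 part did overlap, with 1.54% in inguinal replicate 3 and 1.47% in BAT replicate 1. The 7 stalk and membrane genes did not, with at most 1.28% in WAT (inguinal replicate 2) and at least 1.85% in BAT (replicate 3). Their median transcript lengths were 1799 and 574 nt. Complex II was closer, with 0.545% ± 0.0214, 0.491% ± 0.0702 and 0.582% ± 0.0174, and its inguinal (highest 0.558%) and BAT libraries (lowest 0.564%) almost touched. Cytochrome c held 0.171% ± 0.00784, 0.172% ± 0.0343 and 0.199% ± 0.00177, and the highest WAT library (0.196%) lay just under the lowest BAT library (0.197%). All these errors are SDs over 3 inguinal, 2 perigonadal and 3 BAT libraries.

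**Figure D2:**
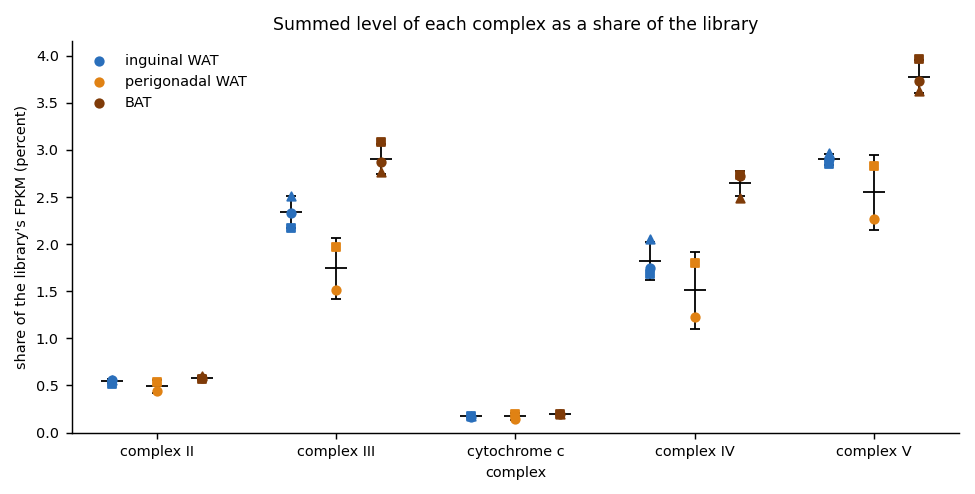
Summed FPKM of each complex as a percentage of the library's FPKM total, with points for the 8 libraries and bars for the mean ± SD of inguinal WAT (blue, n = 3), perigonadal WAT (orange, n = 2) and BAT (brown, n = 3). All shares are highest in BAT without overlap, with clear gaps in complexes III, IV and V and very narrow ones in complex II and cytochrome c.

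Gene by gene, no subunit passed the test in the values as deposited. With limma on log2(FPKM + 1) and Benjamini-Hochberg adjustment over all 8958 tested genes, 0 of the 36 tested subunit genes were called at an adjusted p under 0.05 in any of the 3 comparisons of depots. The background of called genes was 1.73% higher and 0.469% lower in inguinal WAT than in BAT, 4.91% higher and 0.268% lower in perigonadal WAT than in BAT, and 0.301% higher and 0.402% lower in inguinal than in perigonadal WAT. At an unadjusted p under 0.05 there were 10, 3 and 1 subunit genes in these comparisons, beside 8.53, 21.5 and 12.4% of all tested genes. The median log2 difference of the subunit genes was -0.45 for inguinal WAT minus BAT, beside 0.03 over all tested genes. For perigonadal WAT minus BAT it was -0.09, beside 0.52 over all tested genes, and for inguinal minus perigonadal WAT -0.34, beside -0.50. As deposited, 21 of the 36 subunit genes were lower in perigonadal WAT than in BAT, as were 1299 of the 8958 genes. Both comparisons with BAT share the BAT libraries.

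After median-ratio scaling, which brought the medians over all tested genes to 0.01, 0.03 and -0.01, some subunits were called and all of them were lower in WAT. In inguinal WAT against BAT 3 of 36 were lower and 0 higher, beside 1.65% lower and 3.04% higher over all tested genes. In perigonadal WAT against BAT 16 of 36 were lower and 0 higher, beside 3.46% lower and 2.63% higher. Between the WAT depots 0 of 36 were called (7 at an unadjusted p under 0.05, beside 7.61% of all), beside 0.313% higher and 0% lower. The medians of the subunit genes were -0.46, -0.76 and 0.32 in the same order. By complex the scaled perigonadal calls were 1 of 4 in complex II, 4 of 9 in complex III, 0 of 1 for cytochrome c, 5 of 6 in complex IV and 6 of 14 tested in complex V.

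The scaled calls changed with the libraries that entered the fit. Leaving out a perigonadal library leaves 1, which is then assumed to vary like the other groups. Without perigonadal replicate 1 none of the 16 perigonadal calls remained, and that library has the lowest subunit share and the largest scaling factor (1.808, against 1.155 in perigonadal replicate 2). Calls over all tested genes also fell without that library. The median scaled perigonadal difference of the subunit genes was -0.47 without perigonadal replicate 1 and -1.005 without replicate 2, beside -0.76 with both. The subunit count was 6, 7 and 9 without BAT replicates 1, 2 and 3, and 13, 12 and 15 without inguinal replicates 1, 2 and 3. Over all tested genes the calls were then 269, 313 and 355, and 500, 507 and 623, beside 546 with all libraries. In inguinal WAT the subunit count was 0 without inguinal replicate 1, inguinal replicate 2 or any 1 BAT library. Calls over all tested genes were then 226 and 263 without these inguinal libraries and 183, 232 and 249 without BAT replicates 1, 2 and 3, beside 420 with all libraries. The subunit count was 2 without inguinal replicate 3, beside 246 calls over all tested genes. Cox7c was still called there, Uqcr11 and Atp5j2 were not, and Cox5a was called in their place. Of the deposited values, leaving out inguinal replicate 3 gave 2 called subunit genes in inguinal WAT against BAT and 7 in perigonadal WAT against BAT. Calls over all tested genes were then 336 and 1326, beside 197 and 464 with all libraries. Leaving out inguinal replicate 2 gave 1 called subunit gene in inguinal WAT against BAT, beside 166 over all tested genes.

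**Figure D3:**
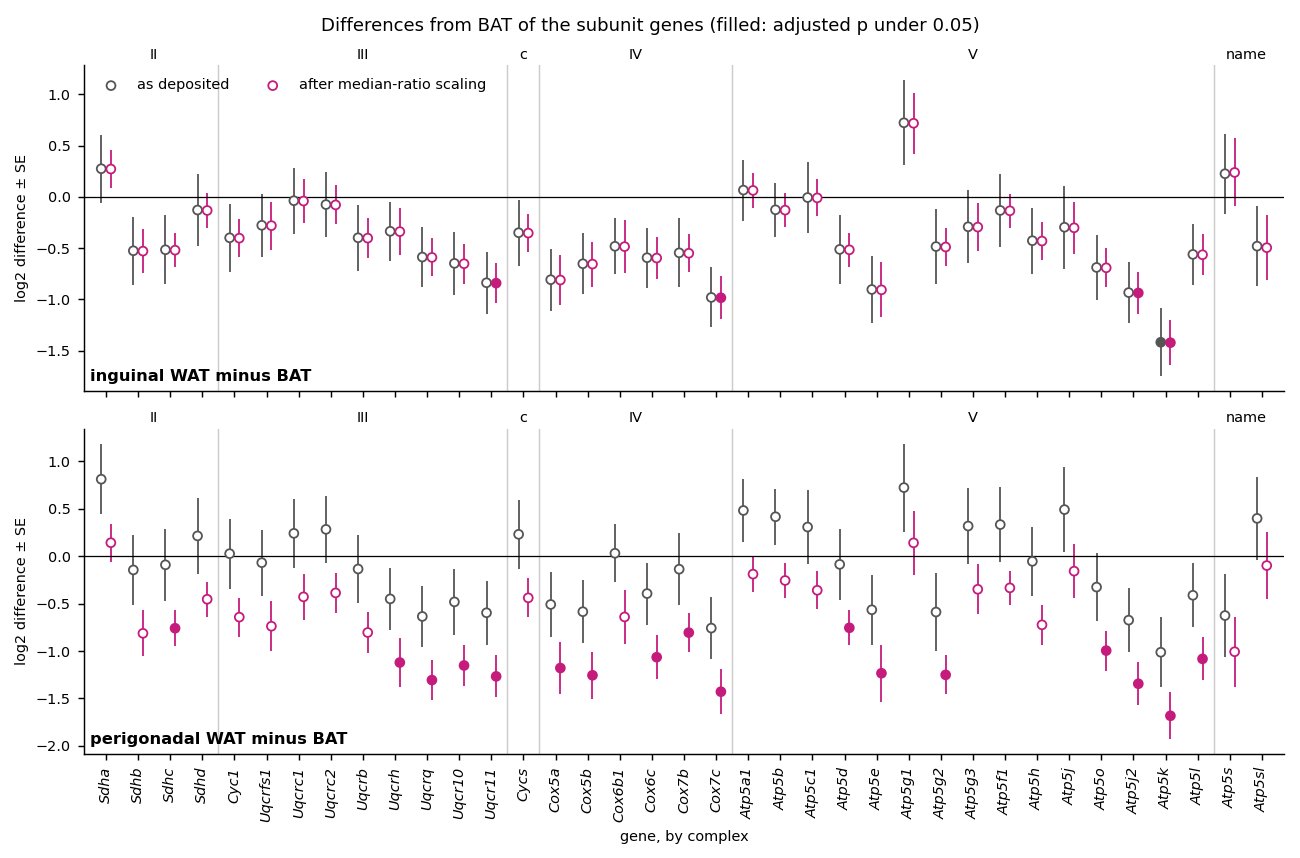
Log2 difference from BAT (± SE of the fit) of each subunit gene in inguinal WAT (top) and perigonadal WAT (bottom), as deposited (grey) and after median-ratio scaling (magenta), with filled symbols for an adjusted p under 0.05. Scaling leaves the inguinal differences in place and moves the perigonadal ones down by about the same amount for all genes, while the SE shrinks. Atp5k is drawn from the fit that keeps transcripts under 300 nt.

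In complex II, 1 of the 4 genes was called, the anchor subunit Sdhc in scaled perigonadal WAT. Sdha (chr13:74459703-74487688 in mm9, 15 exons), which holds the FAD and oxidises succinate, was at 240.4, 222 and 145 FPKM in inguinal WAT, 329 and 252 in perigonadal WAT and 147, 176 and 169.7 in BAT. Its perigonadal libraries were all above BAT, with a log2 difference of 0.81 (SE 0.37, adjusted p = 0.188) as deposited and 0.14 (SE 0.20) after scaling. Sdhc (chr1:173059288-173080734), part of the anchor that binds heme and ubiquinone, was at 199, 178 and 97.7 FPKM in inguinal WAT, 214 and 193 in perigonadal WAT and 230.0, 219.8 and 202 in BAT. Its perigonadal and BAT libraries overlapped as deposited, and it was lower in perigonadal WAT after scaling, with 143 ± 34.4 (SD, n = 2) against 239 ± 10.5 (SD, n = 3) and a log2 difference of -0.76 (SE 0.19, adjusted p = 0.0396). The iron-sulfur subunit Sdhb and the second anchor subunit Sdhd were not called, with deposited group means of 151 to 213 FPKM and 145 to 169 FPKM.

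In complex III, 4 of the 9 genes were lower in scaled perigonadal WAT than in BAT and 1 of them in scaled inguinal WAT. The core proteins Uqcrc1 and Uqcrc2 had deposited log2 differences of -0.04 (SE 0.32) and -0.08 (SE 0.32) in inguinal WAT against BAT and of 0.24 (SE 0.36) and 0.28 (SE 0.35) in perigonadal WAT against BAT. The redox subunits Cyc1, which is cytochrome c1, and Uqcrfs1, the Rieske iron-sulfur protein, had -0.40 (SE 0.33) and -0.28 (SE 0.31), then 0.03 (SE 0.37) and -0.07 (SE 0.35). None of these 4 genes was called under either scaling. All 4 called genes of the complex encode small supernumerary subunits, and only Uqcrb of that kind (-0.80, SE 0.21, scaled, perigonadal WAT against BAT) was not called.

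Uqcr11 (chr10:79865742-79869566, 3 exons), the smallest supernumerary subunit, was at 474, 451 and 204 FPKM in inguinal WAT, 414 and 419 in perigonadal WAT and 637, 726 and 541 in BAT. All WAT libraries lay below all BAT libraries. After scaling it was lower than in BAT in inguinal WAT by a log2 difference of -0.84 (SE 0.20, adjusted p = 0.0392) and in perigonadal WAT by -1.27 (SE 0.22, adjusted p = 0.00978). The inguinal call was lost without any 1 of the 6 inguinal and BAT libraries (adjusted p up to 0.144), and the perigonadal call only without perigonadal replicate 1 (0.0725).

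Uqcrq (chr11:53242450-53244333), a small membrane subunit and the most abundant gene of the complex, was at 511, 553 and 305 FPKM in inguinal WAT, 466 and 392 in perigonadal WAT and 705, 734 and 567 in BAT. Every WAT library was below every BAT library here too. After scaling the perigonadal difference was -1.31 (SE 0.21, adjusted p = 0.00614) and the inguinal one -0.59 (SE 0.19), which was not called. Uqcr10 (chr11:4601971-4604347) was at 372, 348 and 195 FPKM in inguinal WAT, 352 and 308 in perigonadal WAT and 453, 569.6 and 378 in BAT, without overlap, and differed by -1.15 (SE 0.22, adjusted p = 0.0137) in scaled perigonadal WAT. Uqcrh (chr4:115739570-115747675), the hinge protein that holds cytochrome c1 to cytochrome c, was at 515, 453 and 349.6, then 392 and 409.8, then 557, 577 and 512 FPKM. Its inguinal and BAT libraries overlapped, and the scaled perigonadal difference was -1.12 (SE 0.26, adjusted p = 0.0314).

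The gene of cytochrome c was not called in any comparison. Cycs (chr6:50512562-50516473) was at 238, 243 and 135 FPKM in inguinal WAT, 305 and 289.8 in perigonadal WAT and 259, 256 and 245 in BAT. Perigonadal WAT was highest and inguinal WAT lowest as deposited, with 297 ± 10.4 (SD, n = 2), 205 ± 60.7 (SD, n = 3) and 253 ± 7.62 FPKM (SD, n = 3). The sign of the perigonadal difference from BAT depended on the scaling (0.23, SE 0.36, as deposited, and -0.44, SE 0.20, scaled).

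In complex IV, 5 of the 6 genes were lower in scaled perigonadal WAT than in BAT, and 1 of them, Cox7c, also in scaled inguinal WAT. Cox7c (chr13:86184403-86186400, 3 exons), a small membrane subunit, was at 423, 448 and 247 FPKM in inguinal WAT, 405 and 437 in perigonadal WAT and 719, 778 and 647 in BAT. The highest WAT library reached 448 FPKM and the lowest BAT library 647. As deposited the log2 difference was -0.98 (SE 0.29, adjusted p = 0.055) in inguinal WAT. After scaling it was -0.98 (SE 0.21, adjusted p = 0.0269) there and -1.43 (SE 0.24, adjusted p = 0.00746) in perigonadal WAT. The inguinal call failed when inguinal replicate 1 or 2 or any BAT library was left out (adjusted p up to 0.0979), and the perigonadal call only without perigonadal replicate 1 (0.0527).

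Cox5a (chr9:57369039-57380233), on the matrix side of the enzyme, was at 299, 256 and 225 FPKM in inguinal WAT, 325 and 311 in perigonadal WAT and 483, 427 and 450.4 in BAT. Cox5b (chr1:36748332-36750233), its zinc-binding neighbour, was at 419, 404 and 246, then 343 and 384, then 619, 523 and 501 FPKM. Neither gene overlapped between WAT and BAT, and in scaled perigonadal WAT they differed from BAT by -1.18 (SE 0.27, adjusted p = 0.0303) and -1.26 (SE 0.25, adjusted p = 0.0157). Cox6c (chr15:35861731-35868001), a small membrane subunit, was at 551, 453 and 292, then 484 and 475, then 665, 714 and 529 FPKM. Its inguinal replicate 1 exceeded BAT replicate 3, and the scaled perigonadal difference was -1.06 (SE 0.23, adjusted p = 0.0248). Cox7b (chrX:103211039-103217789) was at 227, 208 and 92.4, then 217 and 218, then 235, 228 and 256 FPKM, all WAT values below BAT and inguinal replicate 3 far below, with a scaled perigonadal difference of -0.81 (SE 0.21, adjusted p = 0.0477). The exception was Cox6b1 (chr7:31401993-31411170), the subunit on the cytochrome c side and the most abundant gene of the complex, at 629, 593 and 460.3 FPKM in inguinal WAT, 752 and 838 in perigonadal WAT and 801, 879 and 666 in BAT. Perigonadal WAT and BAT overlapped in Cox6b1, and no comparison of it was called (scaled perigonadal difference -0.64, SE 0.29).

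In complex V, 6 of the 14 tested genes were lower in scaled perigonadal WAT than in BAT, among them 2 of the 5 subunits of the catalytic F1 part. Atp5b (chr10:127520363-127527444, 10 exons), which carries the catalytic sites, was at 1105, 980.1 and 576 FPKM in inguinal WAT, 1393 and 1112 in perigonadal WAT and 892, 962 and 947 in BAT. Both perigonadal libraries were above BAT as deposited, and the log2 difference was 0.42 (SE 0.30) as deposited and -0.26 (SE 0.19) after scaling, neither called. Its partner Atp5a1, the alpha subunit, and Atp5c1, the gamma subunit of the rotating stalk, had scaled perigonadal differences of -0.19 (SE 0.19) and -0.36 (SE 0.20). The 2 small subunits of the central stalk were called there: Atp5d (delta, chr10:79605060-79608563) with -0.76 (SE 0.18, adjusted p = 0.0373) and Atp5e (epsilon, chr2:174286576-174289602) with -1.23 (SE 0.30, adjusted p = 0.0365). Atp5d was at 209, 192 and 96.0 FPKM in inguinal WAT, 224 and 199 in perigonadal WAT and 241, 209 and 224 in BAT, so that its perigonadal and BAT libraries overlapped as deposited. Atp5e was at 210.3, 204 and 123, then 209 and 233, then 266, 470.2 and 279 FPKM, with BAT replicate 2 far above the other BAT libraries and no overlap of WAT with BAT.

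Of the stalk and membrane subunits, 3 of 6 tested were called in scaled perigonadal WAT. Atp5j2 (chr5:145944575-145952461), the f subunit of the membrane part, was at 478, 423 and 222 FPKM in inguinal WAT, 419 and 433 in perigonadal WAT and 666, 801 and 590.2 in BAT. All WAT libraries were below all BAT libraries, and after scaling the differences were -0.94 (SE 0.20, adjusted p = 0.0284) in inguinal and -1.34 (SE 0.23, adjusted p = 0.00876) in perigonadal WAT. The inguinal call was lost without any 1 of the 6 inguinal and BAT libraries (adjusted p up to 0.111), and the perigonadal one only without perigonadal replicate 1 (0.0605). Atp5o (chr16:91925468-91931875), which makes the joint between the head and the peripheral stalk, was at 264, 254 and 141, then 273 and 272, then 370.2, 317 and 340.3 FPKM. Atp5l (chr9:44721331-44728825), the g subunit, was at 386, 385 and 234, then 363 and 361, then 521, 501 and 429 FPKM. Both were below BAT in every WAT library, with scaled perigonadal differences of -0.995 (SE 0.21, adjusted p = 0.0218) and -1.08 (SE 0.23, adjusted p = 0.0206). The stalk genes Atp5f1 (b subunit), Atp5h (d subunit) and Atp5j were not called, at -0.33 (SE 0.18), -0.72 (SE 0.21) and -0.16 (SE 0.29).

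Atp5k (chr5:108862272-108863397, 4 exons), the e subunit of the membrane part, has the shortest transcript at 292 nt and fell under the minimum length of 300 nt. It was at 320.3, 327 and 125 FPKM in inguinal WAT, 299 and 327 in perigonadal WAT and 691, 705 and 518 in BAT, so that no WAT library came near a BAT library. In a fit of 9009 genes that kept short transcripts, it was lower in inguinal WAT than in BAT as deposited (log2 difference -1.42, SE 0.33, adjusted p = 0.0115), as were 0.377% of those genes. After scaling it was lower in inguinal WAT (-1.42, SE 0.22, adjusted p = 0.00752, background 1.49%) and in perigonadal WAT (-1.68, SE 0.25, adjusted p = 0.00543, background 3.27%). FPKM of transcripts this short is sensitive to how fragment length enters the effective length.

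Separation of the groups can be read without a model. As deposited, all inguinal libraries were below all BAT libraries in 18 of the 36 tested subunit genes, beside 5.37% of all tested genes, and above them in 0 (6.81% of all). All perigonadal libraries were below BAT in 14 (3.72% of all) and above BAT in 11 (48.3% of all). Inguinal WAT was wholly below perigonadal WAT in 10 (27.5% of all) and wholly above it in 1, Atp5s (1.44% of all), a gene that rests on 1 to 6 fragments per library. After scaling, the inguinal libraries were below BAT in 20 (11.7% of all), the perigonadal libraries below BAT in 29 (19.4% of all), and inguinal above perigonadal WAT in 8 (11.8% of all). In the opposite direction the counts were 1 (13.3% of all), 0 (20.2% of all) and 0 (11.7% of all).

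Longer transcripts had higher values of the difference, WAT minus BAT. Over the 36 tested subunit genes, the Spearman correlation of transcript length with the log2 difference was 0.74 in inguinal WAT against BAT as deposited and 0.75 in scaled perigonadal WAT against BAT, while over all 8958 genes it was 0.197 and 0.372. These are descriptions across genes of the same libraries. The 16 subunit genes under 700 nt had a median scaled perigonadal difference of -1.17, the 12 from 700 to 1500 nt a median of -0.75 and the 8 over 1500 nt a median of -0.31. Under 700 nt, abundant genes of like length, the subunit genes among them, had similar medians. Between 300 and 500 nt the median over all 42 genes with a mean of at least 50 FPKM was -1.27, beside -1.29 for the subunit genes. Between 500 and 700 nt it was -1.02 over 70 genes, beside -1.07. Since the subunit genes are part of these sets, some likeness is built in. In longer bins the medians lay further apart. There the subunit genes were not filtered at 50 FPKM, so that Atp5g1, Atp5j, Atp5s and Atp5sl are set beside more abundant genes. Between 700 and 1000 nt the abundant genes had -0.67 and the 4 subunit genes -0.46, between 1000 and 1500 nt -0.42 and the 8 subunit genes -0.75, and between 1500 and 2000 nt -0.21 and the 4 subunit genes -0.37. The 3 genes from 2000 to 3000 nt had a median of -0.099 beside 0.03. That median is the value of the name-only gene Atp5sl. Cycs, alone between 3000 and 5000 nt, had -0.44 beside 0.17.

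The calls can be set against abundant genes of the same length, a set that includes the subunit genes of at least 50 FPKM. In scaled perigonadal WAT against BAT 12 of 16 subunit genes under 700 nt were lower, beside 69.6% of the 112 genes of that length with at least 50 FPKM. Between 700 and 1500 nt 4 of 12 were lower, beside 22.1% of 140 genes, and over 1500 nt 0 of 8, beside 4.66% of 193 genes. In scaled inguinal WAT against BAT all 3 called subunit genes were under 700 nt (3 of 16, beside 32.1%). When a smooth trend on length was removed from each library, an alternative added after seeing the data, 0 of 36 were called in each comparison, and 11, 10 and 1 had an unadjusted p under 0.05, beside 17.7, 16.9 and 7.52% of all tested genes. The background was then 0.703% lower in inguinal WAT and 0.793% lower in perigonadal WAT than in BAT, and 0.0223% lower in inguinal than in perigonadal WAT. The medians of the subunit genes were then -0.14, -0.17 and -0.06, beside -0.006, -0.002 and -0.03 over all tested genes. For perigonadal WAT minus BAT they had been -0.09 beside 0.52 over all tested genes as deposited, and -0.76 beside 0.03 after scaling. The subunit median there thus lay nearest to that of all tested genes with the length trend removed. Between the WAT depots it had the deposited sign and not the scaled one. In the same treatment with short transcripts kept, Atp5k was still lower in inguinal WAT (-0.76, SE 0.17, adjusted p = 0.0442, background 0.588%) and was not called in perigonadal WAT (-0.44, SE 0.19, adjusted p = 0.265). Whether the length trend comes from library preparation or from the cells was not tested.

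**Figure D4:**
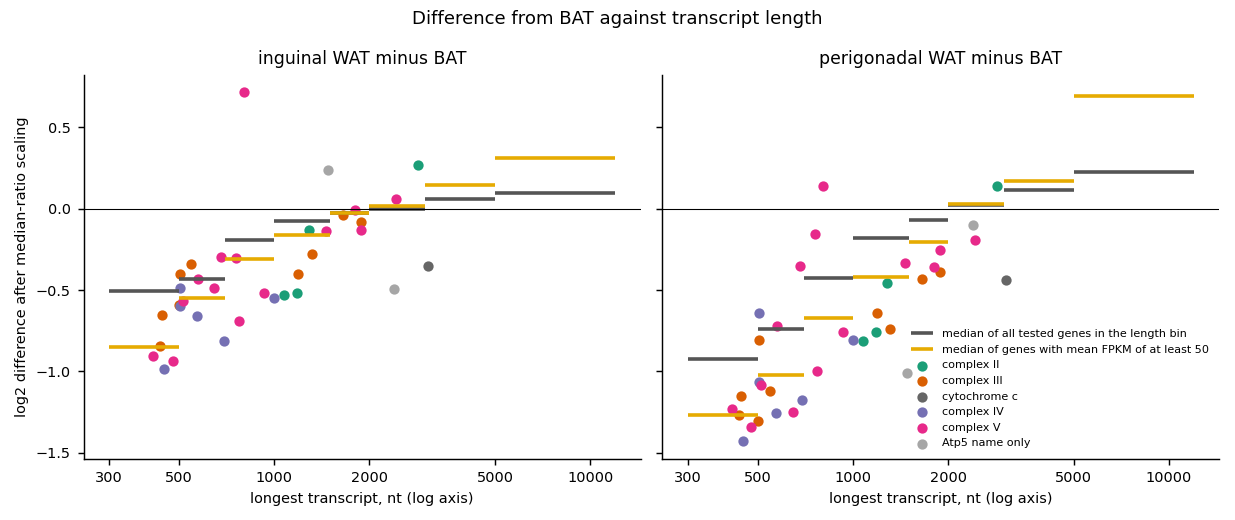
Log2 difference from BAT after median-ratio scaling against the length of the longest transcript (log axis) for the 36 tested subunit genes, coloured by complex, in inguinal WAT (left) and perigonadal WAT (right). Horizontal bars give the median of all tested genes (grey) and of genes with a mean of at least 50 FPKM (yellow) in each length bin; subunit genes under 700 nt have medians near the yellow bars, those in several longer bins lie further off, and Atp5g1 lies above the bars in both panels.

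Ratios within a library are free of any scaling between libraries. Sdha over Sdhb was 1.29, 1.41 and 1.34 in inguinal WAT, 1.76 and 1.28 in perigonadal WAT and 0.649, 0.922 and 0.763 in BAT. Every WAT library had more Sdha than Sdhb and every BAT library less. The exact two-sided permutation test gave p = 0.1 for inguinal WAT against BAT and for perigonadal WAT against BAT, the smallest p that these group sizes allow, and 0.3 for both after Benjamini-Hochberg adjustment over 18 such tests of 6 ratios. The transcripts differ in length (2859 and 1073 nt). With the length trend removed Sdha had positive differences from BAT (0.21 in inguinal and 0.24 in perigonadal WAT) and Sdhb negative ones (-0.43 and -0.38), none of them called. Genes of at least 50 FPKM then had medians of -0.007 and 0.14 between 2000 and 3000 nt, and of -0.12 and -0.07 between 1000 and 1500 nt. The part of length in this ratio was not tested.

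The 3 genes of the c subunit, of similar length (647 to 805 nt), were present in different proportions. Atp5g1 (chr11:95934107-95937008, 5 exons) was at 9.13, 17.1 and 4.97 FPKM in inguinal WAT, 8.84 and 9.78 in perigonadal WAT and 5.56, 7.13 and 3.56 in BAT, the lowest structural subunit in every depot. Atp5g2 (chr15:102493299-102501478) was at 102, 98.9 and 54.1, then 77.3 and 75.0, then 127, 116 and 104 FPKM, with both WAT depots below BAT. Atp5g3 (chr2:73746507-73749351) was at 80.4, 119.8 and 73.2, then 163 and 114, then 119.5, 116 and 94.4 FPKM, with overlap between all depots. Only Atp5g2 was called, in scaled perigonadal WAT against BAT (-1.25, SE 0.20, adjusted p = 0.00713, lost only without perigonadal replicate 1 at 0.0747).

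Of the summed c-subunit level, Atp5g1 made up 4.76, 7.24 and 3.76% in inguinal WAT, 3.56 and 4.91% in perigonadal WAT and 2.21, 2.99 and 1.77% in BAT. All WAT shares were above all BAT shares, on 3 to 20 fragments per library for Atp5g1. The ratio Atp5g1 over Atp5g2 gave p = 0.1 in the exact permutation test against BAT for each WAT depot (0.3 adjusted over the 18 tests). Atp5g3 over Atp5g2 was 0.786, 1.21 and 1.35 in inguinal WAT, 2.10 and 1.53 in perigonadal WAT and 0.942, 0.999 and 0.911 in BAT, with p = 0.4 and p = 0.1 against BAT in the exact permutation test (0.6 and 0.3 adjusted). In BAT Atp5g2 and Atp5g3 were thus near equal, and in perigonadal WAT Atp5g3 was the larger. The genes encode the same mature protein and have processed copies elsewhere in the genome, so the division of fragments between them by the authors' quantification is uncertain.

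The other pairs were read in the same way. Atp5b over Atp5a1 was 2.00, 2.14 and 1.98 in inguinal WAT, 2.21 and 2.25 in perigonadal WAT and 2.34, 2.38 and 2.29 in BAT. Both WAT depots were wholly below BAT (exact permutation p = 0.1 for inguinal and 0.2 for perigonadal WAT, 0.3 and 0.4 adjusted). Uqcrc1 over Uqcrc2 lay between 0.823 and 0.952 in all 8 libraries and Cox5a over Cox5b between 0.634 and 0.949, with overlap of all depots and exact permutation p of 0.4 to 0.6. These last ratios were not called different between depots, which at these group sizes does not show that they are equal.

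**Figure D5:**
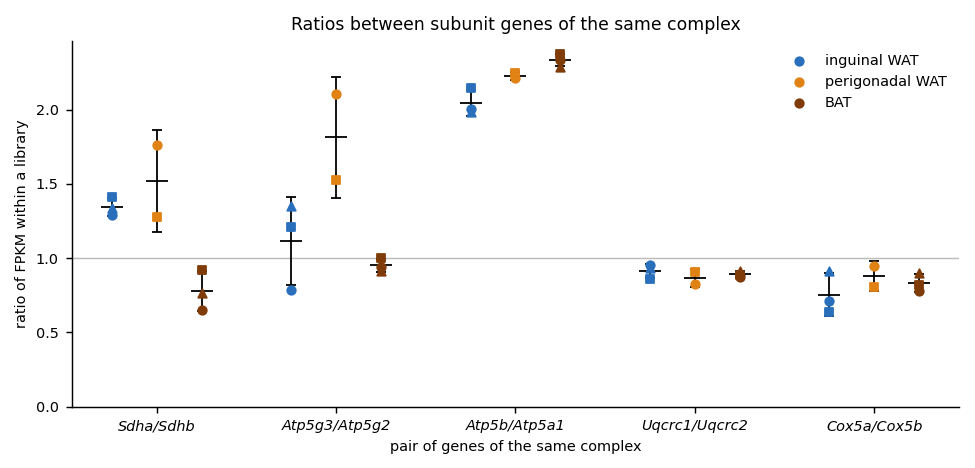
Ratio of FPKM of partner genes of a complex within each library, with points for the 8 libraries and bars for the mean ± SD of inguinal WAT (blue, n = 3), perigonadal WAT (orange, n = 2) and BAT (brown, n = 3). Sdha over Sdhb lies above 1 in all WAT libraries and below 1 in all BAT libraries, whereas Uqcrc1 over Uqcrc2 and Cox5a over Cox5b overlap.

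Among the other subunits of cytochrome c oxidase, which include the tissue-dependent ones, calls were made without any scaling. Of 8 tested, 3 were lower in inguinal WAT than in BAT in the deposited values: Cox8b, the heart and brown fat form (866, 767 and 343 against 1728, 1896 and 1332 FPKM; log2 difference -1.42, SE 0.28, adjusted p = 0.000298), Cox7a1 (-1.32, SE 0.29, adjusted p = 0.00189) and Cox8a, the ubiquitous form (-1.05, SE 0.30, adjusted p = 0.0400). Cox7a1 was also lower in perigonadal WAT as deposited (-1.10, SE 0.32, adjusted p = 0.0282). Of all tested genes 0.469% were lower in inguinal and 0.268% in perigonadal WAT as deposited. After scaling 3 and 5 of the 8 were lower than BAT in inguinal and perigonadal WAT, beside 1.65 and 3.46% of all. With the length trend removed 1 of 8 was called in inguinal WAT, Cox8b (-0.82, SE 0.15, adjusted p = 0.0132), and 1 in perigonadal WAT, Cox7a2 (-0.65, SE 0.15, adjusted p = 0.0486). Cox4i1, the other abundant member, was at 724 ± 193, 785 ± 102 and 945 ± 102 FPKM (SD, n = 3, 2 and 3) and was called in scaled perigonadal WAT (-0.94, SE 0.21, adjusted p = 0.0262).

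For complex I, the NADH dehydrogenase, calls appeared mainly after scaling. Of 37 tested genes 1 was lower in inguinal WAT as deposited, Ndufs5 (19.5, 12.9 and 0.000083 FPKM against 72.3, 47.4 and 26.1), beside 0.469% of all. Its estimate in inguinal replicate 3 was near zero, and the weight of that library in the call was not tested. After scaling 6 were lower in inguinal and 19 in perigonadal WAT than in BAT, beside 1.65 and 3.46% of all tested genes. Among all genes under 700 nt with at least 50 FPKM, complex I genes included, the shares were 32.1 and 69.6%. The largest perigonadal differences were in Ndufs6 (-1.53, SE 0.22, adjusted p = 0.00356), Ndufb4 (-1.48, SE 0.20, adjusted p = 0.00305) and Ndufa6 (-1.34, SE 0.21, adjusted p = 0.00533). The list was taken by name (Ndufa, Ndufb, Ndufc, Ndufs and Ndufv), and a gene so named need not be a subunit of complex I. The most abundant by that name were Ndufa4 with a mean of 459.5 FPKM and Ndufa3 with 368 FPKM. With the length trend removed 0 were called in inguinal and 2 in perigonadal WAT.

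Genes of mitochondrial proteins outside the chain were read as well, although RNA levels do not measure mitochondrial content. Of 18 genes of porins, import and matrix proteins 0 were called as deposited. After scaling Hspe1, a matrix chaperone, was lower in inguinal WAT (-0.86, SE 0.17, adjusted p = 0.0183) and Hspe1, Tomm7 and Tomm20 in perigonadal WAT (-1.25, -1.07 and -0.90). Of all tested genes 1.65 and 3.46% were lower in these 2 scaled comparisons. Citrate synthase, Cs, the most abundant, was at 176 ± 67.7, 267 ± 21.0 and 148 ± 14.96 FPKM, and the chaperone Hspa9 at 169.7 ± 45.4, 227 ± 54.8 and 154 ± 22.1 FPKM (SD, n = 3, 2 and 3), neither called. The median of the list in scaled perigonadal WAT was -0.11, beside -0.76 for the subunit genes. Cs and Hspa9 have transcripts of 2828 and 3042 nt, and the called genes Hspe1, Tomm7 and Tomm20 of 768, 1109 and 1009 nt. With the length trend removed 0 of the 18 were called against BAT. The perigonadal medians were then 0.03 for the list and -0.17 for the subunit genes, and the inguinal ones -0.06 and -0.14. Of 3 tested carriers of phosphate and adenine nucleotides, led by Slc25a3 and Slc25a5 with means of 157 and 103 FPKM, 0 were called under either scaling. At an unadjusted p under 0.05 the deposited values gave 1 of these 18 genes in inguinal and 2 in perigonadal WAT against BAT. This stands beside the 8.53 and 21.5% of all tested genes given above, and 0 of the 3 carriers.

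Among 24 assembly factors of complexes II to V, Cox17, the copper chaperone of complex IV, was lower in perigonadal WAT than in BAT as deposited (176 and 186 against 379.8, 450.4 and 354 FPKM; -1.11, SE 0.35, adjusted p = 0.0480). After scaling 3 were lower there, Cox17 (-1.78), 1110058L19Rik (-1.40) and Tmem70 (-0.94), a factor for ATP synthase, and 0 in inguinal WAT. Of all tested genes 0.268% were lower in perigonadal WAT as deposited, and 3.46% there and 1.65% in inguinal WAT after scaling. The other abundant member, Cox19, had a mean of 57.5 FPKM and was not called. Of 3 inhibitor and accessory genes of ATP synthase, 2010107E04Rik (-1.45, SE 0.30, adjusted p = 0.0194) and Usmg5 (-1.12, SE 0.19, adjusted p = 0.00809) were lower in scaled perigonadal WAT. With the length trend removed, 0 of the 24 assembly factors and 0 of the 3 accessory genes were called in perigonadal WAT against BAT. Of 13 regulators of respiratory genes, Esrra, the receptor ERR alpha, was lower in scaled perigonadal WAT (-0.93, SE 0.18, adjusted p = 0.0157) and also with the length trend removed (-0.78, SE 0.18, adjusted p = 0.0457), at 34.4 and 28.1 against 38.1, 41.9 and 34.2 FPKM. Tfb2m, a mitochondrial transcription factor with a mean of 17.2 FPKM, was not called. No mitochondrially encoded gene was analysed here.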

How the data were processed

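Per the submitters' processing notes, TopHat, Cufflinks and the mouse build mm9 were used; no version is stated. The authors deposited 1 file per library with FPKM for 28702 transcripts of 22552 genes, among other fields; the quantification options are not stated. Transcript values were added up per gene. Fragments, estimated from FPKM and its upper confidence bound, came out whole within 0.05 for 84.27 to 93.3% of low values (up to 20 fragments) per library. Such estimates cover counting error only and entered no test.

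The 8958 genes tested reached 1 FPKM in at least 2 libraries and had a transcript of 300 nt or more. The test was limma with a variance trend on log2(FPKM + 1), two-sided, all 8 libraries in 1 model of 3 groups, with Benjamini-Hochberg adjustment over all tested genes within each comparison and a threshold of 0.05. Fold changes on this scale understate those of low genes. Groups and replicates came from the sample titles. The fit was tested on simulated data.

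The subunit genes and lists were chosen with earlier results of these data known. Described in full were subunits called under either scaling, the most abundant of each complex and the c-subunit genes; of other lists, the 2 most abundant and up to 3 called genes with the largest difference. Alternatives were other pseudocounts, filters, scalings, a fit of the compared groups only, a replicate block, left-out libraries and, added after seeing the data, removal of a length trend (lowess, span 0.3). Positions are in mm9 as the files give them; promoter windows are in GRCm38.p6, and no coordinate was converted. Software was R 4.3.3, limma 3.58.1, Python 3.11.15, pandas 2.3.3, numpy 2.4.6 and matplotlib 3.10.9.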

Additional observations from a re-analysis of the deposited data

How the results depend on the processing

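For inguinal WAT against BAT, 197 genes were called as deposited, 131 with a pseudocount of 0.1, 11 without a filter, 124 with a minimum of 5 FPKM, 420 after median-ratio scaling, 407 after quantile normalization, 443 with the 10 most abundant genes removed and totals made equal and 420 with the replicate block and scaling. The calls were 176 with a pseudocount of 5, 169 with short transcripts kept, 257 with the length trend removed as well, and 280 with the replicate block. Of the subunit genes 0 were called as deposited, 2 with the replicate block and 3 after scaling or with block and scaling. Also 3 were called with the 10 most abundant genes removed and totals made equal. The count was 1 with a pseudocount of 5, with a minimum of 5 FPKM, with short transcripts kept, or after quantile normalization. It was 1 too with the length trend removed and short transcripts kept. The median of the subunit genes of -0.45 became -0.14 with the length trend removed.

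For perigonadal WAT against BAT, 464 genes were called as deposited, 214 with a pseudocount of 0.1, 117 without a filter, 307 with a minimum of 5 FPKM, 1079 in a fit of these groups only, 294 with the length trend removed and 270.0 with short transcripts kept as well. The calls were 546 after scaling, 519 after quantile normalization, 587 with the 10 most abundant genes removed and totals made equal, and 458 with block and scaling. In these 4 settings, in the same order, the subunit count of 0 became 16, 10, 13 and 9. It became 6 in a fit of these groups only. The median of the subunit genes of -0.09 became -0.76 after scaling, -0.49 with the 10 most abundant genes removed and totals made equal and -0.72 with block and scaling.

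Between the WAT depots, 63 genes were called as deposited, 5 and 146 with pseudocounts of 0.1 and 5, 9 without a filter, 32 with a minimum of 5 FPKM, 40 with short transcripts kept, 28 after scaling, 39 after quantile normalization, 27 with the 10 most abundant genes removed and totals made equal, 34 in a fit of these groups only and 10 with the replicate block and scaling. Subunit calls were 0 in all of these settings. Their median of -0.34 became 0.32 after scaling, 0.14 after quantile normalization, 0.21 with the 10 most abundant genes removed and totals made equal, 0.28 with block and scaling, -0.056 with the length trend removed and -0.0545 with short transcripts kept as well. The direction between WAT depots therefore depends on the scaling.

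Leaving out each library in turn gave 109 to 336, 105 to 1326 and 11 to 220.0 called genes in the 3 comparisons (183 to 335, 111 to 623 and 6 to 39 after scaling), 0 to 2, 0 to 7 and 0 called subunit genes (0 to 4, 0 to 17 and 0 after scaling), and medians of -0.58 to -0.17, -0.13 to -0.03 and -0.50 to -0.063 (-0.54 to -0.37, -1.005 to -0.47 and 0.0649 to 0.61 after scaling). Deviations of same-numbered libraries correlated by -0.0976 to 0.116 over 7 pairs. Between inguinal WAT and BAT the same-numbered pairs gave 0.116, 0.0641 and 0.055, and the differently numbered pairs -0.0569 to -0.00852. Same-numbered pairs with perigonadal WAT gave 0.0258, -0.0976, -0.0124 and -0.00283. Deviations from a group mean offset each other, and values this small do not settle whether libraries of the same number belong together. Of 2202 values of single named subunit genes under these alternatives, 2046 stayed on their side of the threshold. Among these, 143 were uncalled values that changed sign. The threshold was newly passed by 81 values and no longer passed by 75. Most of the 2202 values were uncalled in their main fit, so they had no call to lose. All 75 losses fell among the 3 inguinal and 16 perigonadal calls after scaling, so 2046 does not measure how stable those calls were. The cause of these shifts was not tested. Depth limits Atp5g1, Atp5s and Atp5sl, which rest on at most 25 fragments per library.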
